A study of Mus musculus with 4 samples.

Results

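The 10 genes described here are Bcl2, Bcl2l1 and Mcl1, which encode anti-apoptotic proteins, Bax and Bak1, which encode the effectors of mitochondrial apoptosis, and Bcl2l11, Bbc3, Pmaip1, Bid and Bad, which encode BH3-only proteins. They were taken by gene symbol from a table of 24391 genes, and 10 of 10 symbols had a row. Of these, 9 held enough reads to be tested, and Pmaip1 was listed at 0 counts in each library. RNA-Seq was available for 4 libraries of Beko cells, a mouse progenitor T-cell line with constitutive Notch activity. The 2 conditions had 2 libraries each. In the GSI condition the cells had been kept for 48 h in the γ-secretase inhibitor DAPT (GSI), which blocks release of the Notch intracellular domain. In the washout condition they had been kept in GSI for 48 h as well, after which the inhibitor was removed and culture went on for 24 h. The labels give the dose as 10 mg/ml, whereas the methods give μg/ml with the same number. All libraries come from this cell line, all cells had received the inhibitor, and the labels do not say whether libraries 1 and 2 of a condition came from separate cultures, so p-values measure only the spread between these libraries, which may be technical.

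The proteins of the Bcl2 family decide whether the outer mitochondrial membrane is made permeable, the step that releases cytochrome c and starts the caspase cascade. Anti-apoptotic members hold the effectors and the BH3-only members in check. BH3-only members relay stress signals, either by binding to the anti-apoptotic members or by activating Bax and Bak1 directly. In developing T-cells, survival through the stages of receptor rearrangement depends on Mcl1, Bcl2 and Bcl2l1, and Bim (the product of Bcl2l11) is needed for the deletion of self-reactive thymocytes.

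Libraries held between 13716199 and 36364200 counted reads, and in both conditions library 1 was the deeper. Replicates correlated at 0.99 and 0.988 over the log2 CPM of all genes tested. All 11 progenitor T-cell markers on the list had enough reads to be tested. Their summed level was between 5840 and 7000 CPM (counts relative to the library total, scaled by the TMM factors). At the threshold used below, 3 rose (27.3%, against 27.0% of all genes tested) and 4 fell (36.4%, against 25.4%). Those that rose were Ptcra (log2 fold change 2.37), Cd3g (0.86) and Rag2 (0.64). Those that fell were Gata3 (-1.67), Dntt (-1.62), Tcf7 (-0.87) and Bcl11b (-0.72). Cd3d, Cd3e, Lck and Rag1 did not pass. Of the markers of other cell types, Ms4a1, Pax5, Lyz2, Elane, Fcer1a, Mcpt4, Tpsb2, Hbb-b1, Hba-a1 and Col3a1 were at 0 in each library. The 6 mast cell markers reached a sum of 275 and 167 CPM with GSI but 45.7 and 30.5 CPM after washout, almost wholly from Cpa3 and Kit. The 5 myeloid markers in the table reached 49.1 and 38.2 CPM with GSI but 5.49 and 4.91 CPM after washout, nearly all from Itgam. The 5 B cell markers summed to at most 0.96 CPM, and the 5 stromal markers went from 269 and 219 CPM to 95.1 and 101 CPM. Nearly all of the stromal sum came from Pecam1 (221 and 174 CPM to 67.1 and 64.4 CPM) and Pdgfrb (44.5 and 42.2 CPM to 26.6 and 35.0 CPM). Col1a1 and Col1a2 stayed at or below 2.19 CPM. The erythropoietin receptor gene Epor fell from 11.8 and 11.0 CPM to 6.26 and 6.40 CPM (log2 fold change -0.86, adjusted p = 0.00721), and Klf1, an erythroid transcription factor gene, fell as well (-1.18, adjusted p = 0.0325). These markers moved in the same contrast as the genes below, and their part in the results was not tested. In bulk RNA, fewer cells of a type and less RNA per cell cannot be told apart, and the washed cells were also in culture for longer, so that return of Notch activity, washing and added time cannot be told apart either.

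Upon washout, the RNA of Bid and Bax rose, and that of Bbc3, Bcl2l11, Bcl2, Mcl1 and Bcl2l1 fell (adjusted p under 0.05 by the quasi-likelihood test of edgeR, adjusted after Benjamini and Hochberg over 12266 genes). Hence 2 of the 9 tested members were higher, or 22.2%, against 27.0% of all genes tested, and 5 were lower, or 55.6%, against 25.4% of all genes tested. The criteria of the study also ask for a log2 fold change above 1 or below -1. By these, 0 of the members were higher in edgeR, as in DESeq2, the highest log2 fold change being 0.86, against 7.74% of all genes tested, and 1 member, Bbc3, was lower, against 11.7%. The members had a median log2 fold change of -0.40, whereas the median over all genes tested was -0.01. In 3 members both washout libraries lay above both GSI libraries, and in the other 6 they lay below. Such separation was common here, with 38.2% of all genes tested separated upward and 39.1% downward.

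**Figure D1:**
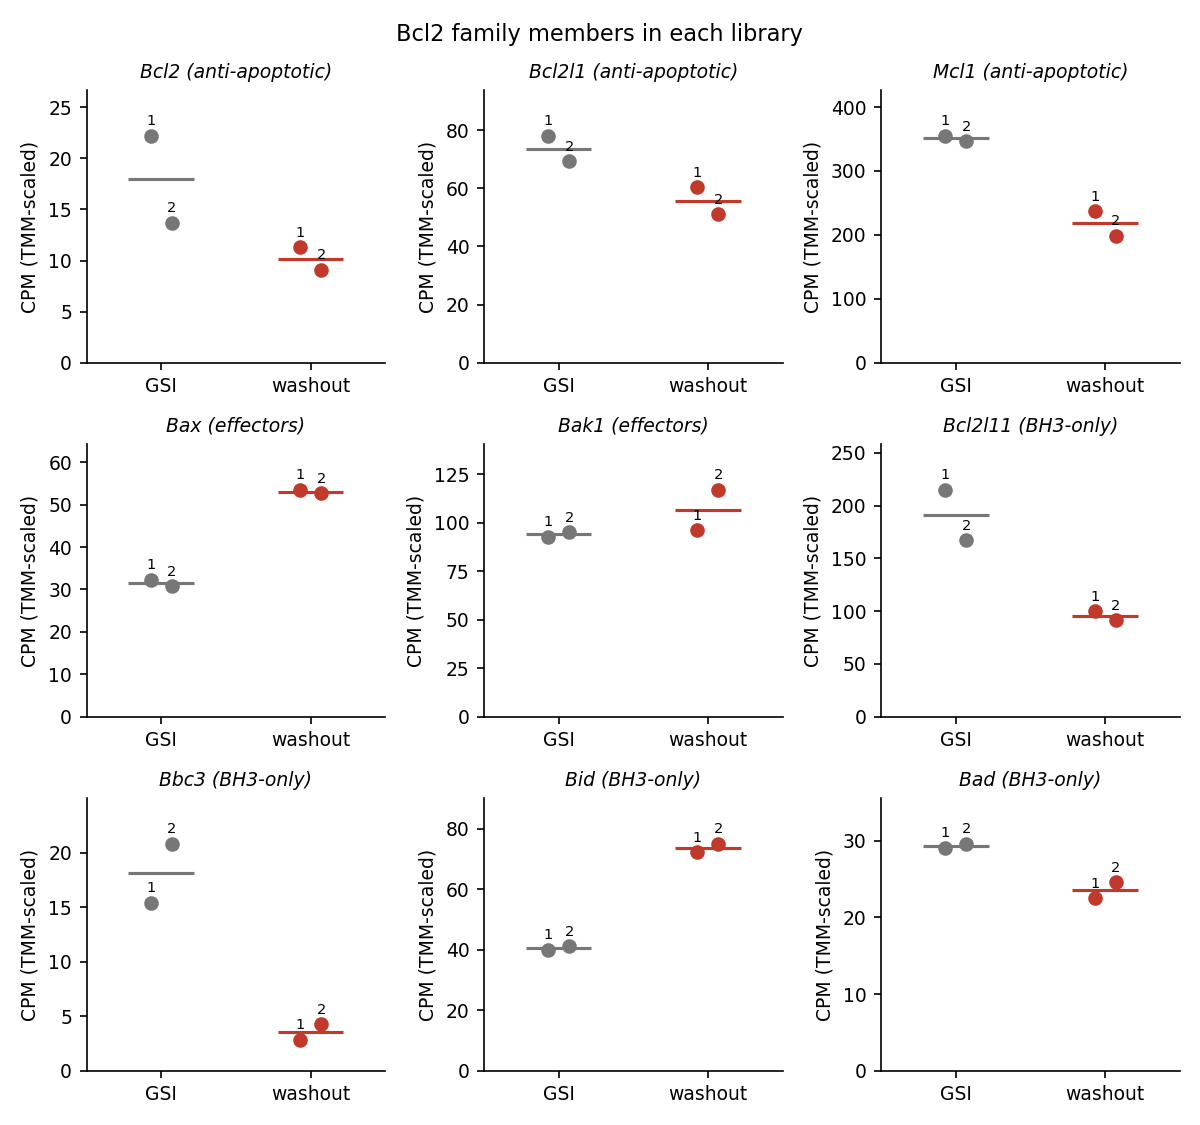
Level of the 9 tested members in each library, in CPM scaled by the TMM factors, on axes that start at 0. Points are the libraries, numbered by replicate, and bars are the means of 2 libraries in GSI (gray) and washout (red). No panel has overlapping conditions, and the gap is narrowest for Bak1, where GSI library 2 lies at 95.3 CPM and washout library 1 at 96.2 CPM.

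Each of the 3 anti-apoptotic members fell. Mcl1, whose short-lived protein sequesters Bim, Puma and Bak, was the most abundant of the family. The gene lies on chromosome 3 from 95462643 to 95467099 (mm9, + strand). The libraries with GSI held 355 and 347 CPM of Mcl1, those after washout 237 and 199 CPM. Both washout libraries were well below the GSI libraries, and the conditions were further apart than the replicates. Mcl1 fell to a 1.61-fold lower level (log2 fold change -0.69, standard error 0.119, adjusted p = 0.00431). Its promoter is shown because Mcl1 had the lowest p-value in this role. The sequence is the 250 bases before the annotated start (RefSeq, GRCm38.p6, chr3:95658471-95658720, + strand), and capitals in this and the following promoters mark a motif on either strand. Searched were the RBPJ motif TGGGAA, the E-box CACGTG bound by Myc and other basic helix-loop-helix factors, and the forkhead motif TGTTTAC bound by Foxo factors. None of these letters occurs in the Mcl1 window, which is therefore without capitals.
Mcl1: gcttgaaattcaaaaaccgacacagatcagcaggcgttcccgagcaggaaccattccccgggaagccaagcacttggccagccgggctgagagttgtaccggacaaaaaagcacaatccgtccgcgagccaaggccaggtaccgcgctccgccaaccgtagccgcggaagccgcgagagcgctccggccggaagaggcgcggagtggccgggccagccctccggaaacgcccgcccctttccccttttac

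Bcl2, the founding member of the family, had the lowest mean level of the 9 per length of transcript. It lies on chromosome 1 from 108434755 to 108610851 (mm9, - strand). With GSI 709 and 200 reads were counted (22.2 and 13.7 CPM), and after washout 386 and 122 reads (11.3 and 9.08 CPM). The GSI libraries differed from each other by more than GSI library 2 differed from washout library 1. The log2 fold change of Bcl2 was -0.81 (standard error 0.256, adjusted p = 0.037), with a wide 95% interval from -1.43 to -0.19. This call rested on single libraries. Without GSI library 1 the log2 fold change of Bcl2 was -0.42 (adjusted p = 0.227), and without washout library 2 it was -0.66 (adjusted p = 0.0674). An exon of D630008O14Rik overlaps Bcl2 on the other strand, and since the strand setting of the counting is not given in the sources used here, reads of the pair might be mixed. Bcl2l1, whose main product is Bcl-xL, lies on chromosome 2 from 152593052 to 152657464 (- strand). It fell from 78.0 and 69.3 CPM to 60.3 and 51.0 CPM. The decrease of Bcl2l1 was the smallest among the called members, at -0.40 (standard error 0.121, adjusted p = 0.0325). It lost the call without GSI library 1 (-0.32, adjusted p = 0.176), without GSI library 2 (-0.47, adjusted p = 0.0557), without washout library 2 (-0.27, adjusted p = 0.114) and after correction for GC content and exon length (-0.25, adjusted p = 0.16).

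The effectors Bax and Bak1 form the pores in the outer membrane and can largely stand in for each other. Bax lies on chromosome 7 from 52717065 to 52722268 (mm9, - strand). Its level was 32.3 and 30.8 CPM with GSI, and after washout it was 53.5 and 52.7 CPM. The replicates were close to each other in both conditions, and the gap between conditions was many times larger. Bax rose 1.68-fold (log2 fold change 0.75, standard error 0.0978, adjusted p = 0.00155). Its 250 bases before the start (GRCm38.p6, chr7:45466899-45467148, - strand) are shown because Bax had the lower p-value of the pair. They hold TGGGAA 137 bases and CACGTG 9 bases before the start.
Bax: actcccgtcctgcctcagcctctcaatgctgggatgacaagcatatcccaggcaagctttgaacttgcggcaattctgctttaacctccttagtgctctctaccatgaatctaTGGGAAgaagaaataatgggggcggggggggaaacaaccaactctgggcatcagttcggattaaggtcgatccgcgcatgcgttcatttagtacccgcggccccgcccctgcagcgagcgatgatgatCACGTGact

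For Bak1 the GSI libraries gave 92.8 and 95.3 CPM, and those of the washout 96.2 and 117 CPM. Washout library 1 was thus level with the GSI libraries and washout library 2 was higher. The log2 fold change of Bak1 was 0.17 with a 95% interval from -0.11 to 0.46, and the adjusted p of 0.253 missed the threshold. Scaled to the total count alone its sign turned (-0.03), whereas after correction for GC content and exon length it passed the threshold (0.36, adjusted p = 0.0152). Within a library, where scaling plays no role, the log2 ratio of Bax to Bak1 counts was -1.52 and -1.63 in GSI and -0.85 and -1.15 upon washout. The effector pair thus shifted toward Bax by 0.58 on the log2 scale, with a replicate SD of 0.159. Bak1 (chromosome 17, 27156755 to 27165954, - strand) overlaps exons of Ggnbp1 on the other strand, which had at most 75 counts.

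The BH3-only members moved in both directions. Bbc3 encodes Puma, a BH3-only protein that is a classic target of p53 and binds all anti-apoptotic members. It lies on chromosome 7 from 16894965 to 16903554 (mm9, + strand). With GSI 492 and 303 reads were counted (15.4 and 20.8 CPM), but after washout only 97 and 57 (2.85 and 4.24 CPM). Each washout library was several-fold below each GSI library. Bbc3 thus fell to a 5.23-fold lower level (log2 fold change -2.39, standard error 0.265, adjusted p = 0.000915), and the change lay among the lowest 2.1% of all genes tested. Of the members it alone passed glmTreat, a test against a log2 fold change of 1 (adjusted p = 0.012). Without single libraries the value was between -2.64 and -2.07, and the call held each time.

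Bcl2l11 encodes Bim, which binds all anti-apoptotic members and activates Bax and Bak1. It lies on chromosome 2 from 127951774 to 127988283 (mm9, + strand). Bcl2l11 reached 215 and 167 CPM with GSI, as opposed to 99.7 and 91.2 CPM after washout. The GSI libraries differed from each other, but by less than the gap between them and the washout libraries. It fell 2.0-fold (log2 fold change -1.0, standard error 0.141, adjusted p = 0.00203). Before rounding it lay just short of the threshold of -1. It passed this value with total-count scaling (-1.20) and with at least 10 counts required in every library (-1.04). The same held after thinning to the smallest library (-1.02, or -1.01 with a term for the library number). With 1 library left out, the log2 fold change of Bcl2l11 ran from -1.16 without GSI library 2 to -0.81 without GSI library 1. Among the 250 bases before the gene start, the forkhead motif occurs in 1 of 2 windows of Bcl2l11 and 1 of 3 windows of Bbc3. These windows were picked for display after the motifs had been seen. The motif lies 227 bases before the start of Bcl2l11, read on the opposite strand (GRCm38.p6, chr2:128125788-128126037, + strand), and 167 bases before the start of Bbc3 (chr7:16310011-16310260, + strand).
Bcl2l11: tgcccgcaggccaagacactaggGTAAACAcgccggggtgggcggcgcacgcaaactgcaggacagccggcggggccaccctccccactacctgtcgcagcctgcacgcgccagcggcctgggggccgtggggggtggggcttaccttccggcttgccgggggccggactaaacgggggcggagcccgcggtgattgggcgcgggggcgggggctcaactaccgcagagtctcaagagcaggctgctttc
Bbc3: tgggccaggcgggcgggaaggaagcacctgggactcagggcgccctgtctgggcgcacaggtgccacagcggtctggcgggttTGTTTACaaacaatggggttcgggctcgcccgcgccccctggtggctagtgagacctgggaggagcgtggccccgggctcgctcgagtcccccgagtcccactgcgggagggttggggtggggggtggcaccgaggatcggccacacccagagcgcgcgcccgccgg

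Bid, in contrast, rose. Its product is cut by caspase-8 and carries death receptor signals to the mitochondria. The gene lies on chromosome 6 from 120841948 to 120866871 (mm9, - strand). The GSI libraries held 40.0 and 41.1 CPM of Bid, the washout libraries 72.3 and 75.0 CPM. Replicates were nearly equal in both conditions, and the conditions were clearly separated. Its rise was 1.82-fold (log2 fold change 0.86, standard error 0.0916, adjusted p = 0.000807), with the lowest p-value among the members. Leaving out any library kept it between 0.84 and 0.89. The gene overlaps exons of Bcl2l13 on the other strand, with 3078 and 1463 reads in the GSI libraries, 3484 and 1409 in those of the washout and a log2 fold change of 0.08. The promoter of Bid (GRCm38.p6, chr6:120916825-120917074, - strand) is shown for its p-value and contains none of the motifs.
Bid: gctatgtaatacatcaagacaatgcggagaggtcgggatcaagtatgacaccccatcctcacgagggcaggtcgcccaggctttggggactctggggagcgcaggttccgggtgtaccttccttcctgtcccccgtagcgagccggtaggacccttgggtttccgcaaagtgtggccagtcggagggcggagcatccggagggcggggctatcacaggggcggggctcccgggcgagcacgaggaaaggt

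Bad, which binds Bcl2 and Bcl-xL and is inactivated by phosphorylation downstream of growth factor signals, lies on chromosome 19 from 7016351 to 7026388 (mm9, + strand). With GSI it reached 29.1 and 29.6 CPM, and after washout 22.5 and 24.6 CPM. The libraries did not overlap, but the log2 fold change of Bad was small at -0.32 (95% interval -0.60 to -0.04), and its adjusted p of 0.0555 missed the threshold. In fits without a term for the library number, it passed with total-count scaling (-0.52, adjusted p = 0.0103) and with at least 10 counts required in every library (-0.36, adjusted p = 0.0376), and was -0.12 (adjusted p = 0.314) after the GC and length correction. Bad overlaps exons of Gpr137 on the other strand, for which 553 and 292 reads were counted with GSI, as opposed to 390 and 176 after washout, a log2 fold change of -0.61 in the same direction as Bad. Pmaip1, which encodes Noxa, a BH3-only protein that binds mainly Mcl1, was listed at 0 in all libraries. Counts of 3 would correspond to between 0.0881 and 0.223 CPM, but a row of 0 may also come from the counting, so no level is given.

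**Figure D2:**
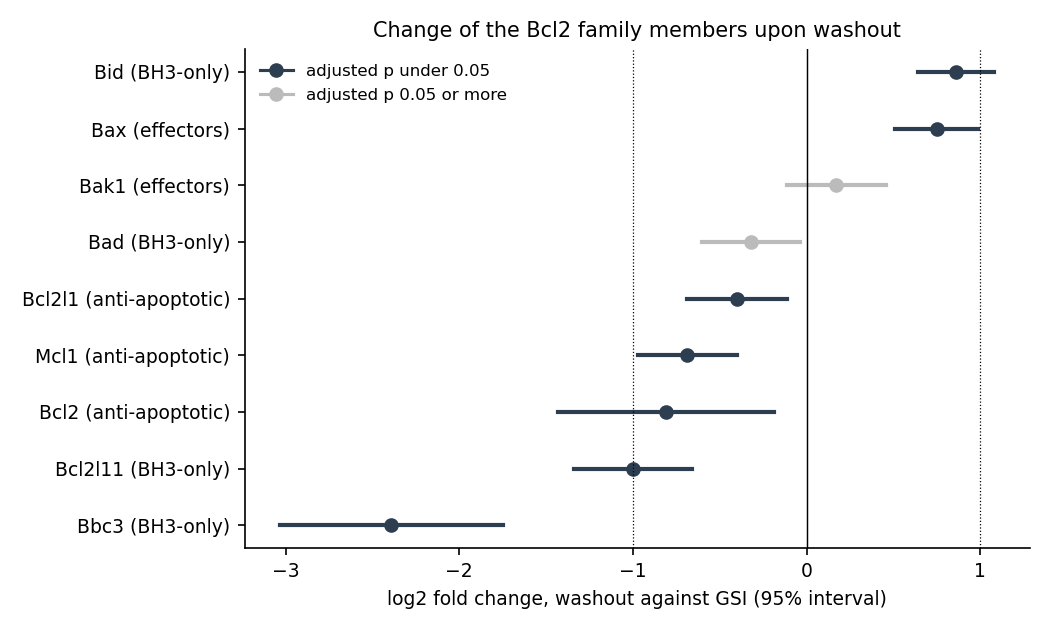
Log2 fold change of washout against GSI for the 9 tested members, with 95% intervals from edgeR that are not adjusted for multiple tests. Dark points passed an adjusted p of 0.05, gray points did not, and dotted lines mark 1 and -1. Bid and Bax lie right of 0, the 3 anti-apoptotic members lie left of it, and the interval of Bbc3 (-3.03 to -1.75) lies wholly below -1.

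In the 250 bases before the gene start, the RBPJ motif was found in 3 of 15 windows of the 9 members with a window (20%), those of Bax and Bad, against 21.6% of 32851 windows of all genes. The E-box occurred in 2 of the 15 windows (13.3%, Bax and Bbc3, against 6.02%) and the forkhead motif also in 2 (13.3%, against 3.17%), in the windows of Bcl2l11 and Bbc3 shown above. No motif overlapped another. Several windows belong to the same gene, and some of Bbc3 overlap, and a match describes letters only, without evidence of binding.

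To compare the levels of different genes, CPM were divided by the exon length in kb. In GSI the order was Mcl1 (101 CPM per kb), Bak1 (39.1), Bcl2l11 (23.8), Bax (23.6), Bcl2l1 (15.6), Bad (14.6), Bid (11.4), Bbc3 (9.0) and Bcl2 (2.49), each given as the mean of 2 libraries. Bcl2l11 and Bax overlapped in their libraries, as did Bcl2l1 and Bad, so that their order is not resolved. Upon washout the order was Mcl1 (62.6 CPM per kb), Bak1 (44.2), Bax (39.6), Bid (20.7), Bcl2l11 (11.9), Bcl2l1 (11.8), Bad (11.7), Bbc3 (1.77) and Bcl2 (1.42). Here Bcl2l11, Bcl2l1 and Bad were not resolved, nor were Bbc3 and Bcl2. Bid moved from rank 7 to rank 4, past Bcl2l11, Bcl2l1 and Bad. Mcl1 kept rank 1 in both conditions.

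Expressed as shares of their summed level per kb, the tested members shifted from anti-apoptotic members to effectors. Anti-apoptotic members made up 49.7% and 49.2% in GSI and 39.7% and 33.9% upon washout. Most of this was Mcl1, with 41.7% and 42.2% in GSI and 32.8% and 28.0% upon washout. Bcl2l1 went from 6.74% and 6.20% to 6.14% and 5.29%, and Bcl2 from 1.26% and 0.807% to 0.759% and 0.620%. Effectors went from 25.7% and 26.5% to 38.5% and 43.1%. Bax went from 9.88% and 9.73% to 19.2% and 19.3%. The share of Bak1 went from 15.8% and 16.8% to 19.2% and 23.8%, although its own level did not pass the threshold. Among these tested members, the BH3-only share stayed in a narrow range, with 24.6% and 24.3% in GSI and 21.9% and 23.0% upon washout. Within that role the members traded places. Bcl2l11 went from 10.9% and 8.80% to 5.98% and 5.57%, and Bbc3 from 3.13% and 4.38% to 0.683% and 1.04%, whereas Bid went from 4.61% and 4.90% to 9.80% and 10.4%. BH3-only genes outside the members were not counted in these shares. Of those tested, Bmf fell from 148 and 176 CPM to 45.5 and 50.4 CPM, and 4 did not pass the threshold. The summed level of the tested members was 244 and 236 CPM per kb in GSI and 208 and 204 CPM per kb upon washout. With 2 libraries against 2, an exact two-sided permutation test of any such share cannot give a p-value below 0.333, and no other test was run on these shares. Shares do not depend on the scaling between libraries, although they depend on the exon lengths used.

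**Figure D3:**
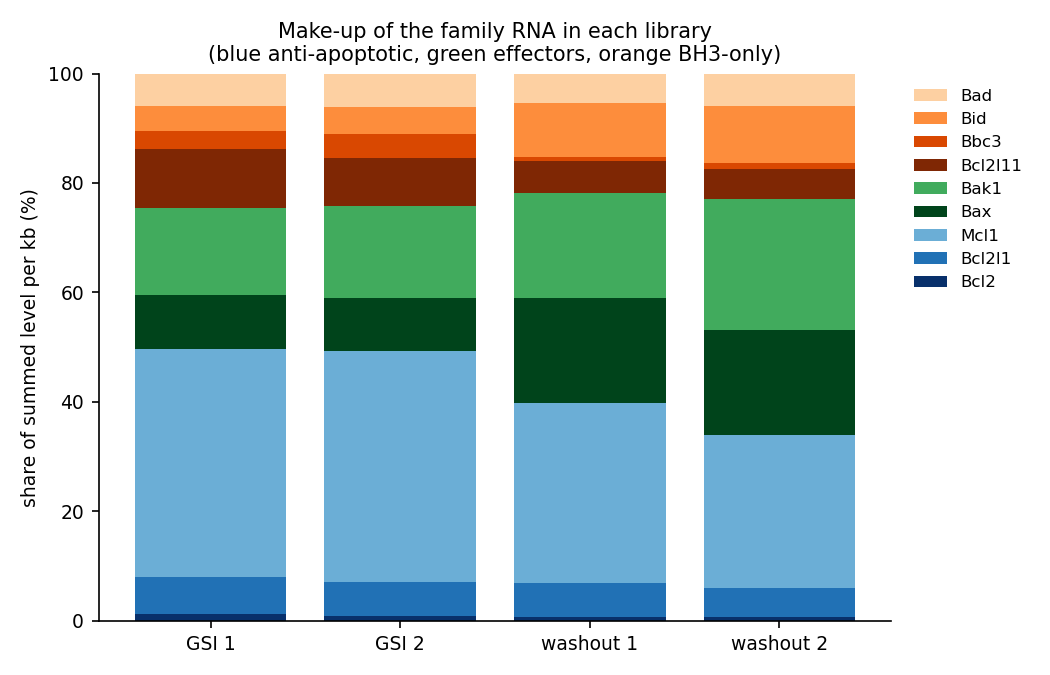
Share of each tested member in the summed level per kb of the tested members, in percent, with 1 bar per library. Blue stands for anti-apoptotic members, green for effectors and orange for BH3-only members. The blue part shrinks from 49.7% and 49.2% to 39.7% and 33.9%, and the green part grows.

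Ratios of counts within a library, not divided by length, give the balance between pairs. The log2 ratio of Bax to Bcl2 was 0.55 and 1.17 in GSI and 2.24 and 2.54 upon washout. The increase of 1.53 exceeded the replicate SD of 0.345. For Bcl2l11 to Bcl2 the values were 3.28 and 3.60 in GSI and 3.14 and 3.33 upon washout, which overlap. The change of -0.21 was close to the replicate SD of 0.19, and the libraries of both conditions were interleaved. Against Mcl1, the log2 ratio of Bcl2l11 went from -0.73 and -1.06 to -1.25 and -1.13, a change of -0.30 with a replicate SD of 0.176. Among the anti-apoptotic members, the log2 ratio of Mcl1 to Bcl2 changed by 0.09 with a replicate SD of 0.331, and without GSI library 1 its sign turned (-0.24). Bcl2l1 to Bcl2 changed by 0.38 with a replicate SD of 0.264. With 1 library left out, Bcl2l1 to Bcl2 ran from 0.11 without GSI library 1 to 0.64 without GSI library 2. Bcl2l11 to Bcl2 ran from -0.37 without GSI library 1 to -0.04 without GSI library 2, and Bcl2l11 to Mcl1 ran from -0.46 without GSI library 2 to -0.13 without GSI library 1. No test was run on these 6 ratios.

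The wider pathway was followed with lists of 46 genes in 7 groups, of which 38 could be tested. Of these 13 were higher (adjusted p under 0.05, 34.2% against 27.0% of all genes tested) and 8 were lower (21.1% against 25.4%), while 17 did not pass, and the median log2 fold change was 0.18. The apoptosome and caspase list also holds genes that are not confined to the steps after cytochrome c release, such as Casp8, whose product cuts Bid. Of its 14 tested genes, 8 were higher (57.1%, against 27.0% of all genes tested) and 3 were lower (21.4%, against 25.4%). The median log2 fold change of the list was 0.39. Cycs, which encodes cytochrome c itself, rose most, from 33.2 and 28.4 CPM to 88.3 and 61.1 CPM (log2 fold change 1.28, adjusted p = 0.00243). The initiator caspase gene Casp9 fell (log2 fold change -0.77, adjusted p = 0.00447), with 22 and 20.2 CPM with GSI and 12.1 and 12.8 CPM after washout, and the executioner caspase gene Casp6 fell by the same amount, from 23.6 and 20.8 CPM to 13.1 and 13.0 CPM (adjusted p = 0.00468). Among the 4 mitochondrial pore partners 3 rose (75%, against 27.0% of all genes tested) and 1 did not pass. Their log2 fold changes ran from 0.31 to 1.04. The largest rise was that of Mtch2, which encodes a receptor for Bid at the outer membrane (52.0 and 45.4 CPM to 104 and 97.3 CPM, log2 fold change 1.04, adjusted p = 0.000731). Of the 5 inhibitors of apoptosis genes, 1 rose (20%, against 27.0% of all genes tested) and 2 fell (40%, against 25.4%). The gene that rose was Birc5, which encodes survivin (log2 fold change 0.78, adjusted p = 0.000982). The lower of the 2 that fell was Birc3 (-0.57, adjusted p = 0.0181).

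Among the other BH3-only genes, 1 of 5 tested was lower (20% against 25.4% of all genes tested) and the others did not pass. This was Bmf, whose product is held at the cytoskeleton until stress releases it, and which fell from 148 and 176 CPM to 45.5 and 50.4 CPM (log2 fold change -1.76, adjusted p = 0.000343). The remaining 4 (Bik, Bnip3, Bnip3l and Becn1) had log2 fold changes between -0.52 and 0.54. Of the effector and atypical relatives, 1 of 3 tested was lower (33.3%, against 25.4% of all genes tested). This was Bcl2l14 (-1.19, adjusted p = 0.00192), and the other 2 tested did not pass. Of the anti-apoptotic relatives only Bcl2l2 could be tested. It fell from 14 and 8 counts to 4 and 2 counts (-1.87, adjusted p = 0.0301), few enough for counting error to weigh. Bcl2a1a, Bcl2a1b, Bcl2a1c and Bcl2a1d, which are near-identical copies, were listed at 0, as were Bcl2l10 and Bok. Of 6 genes for turnover and binding partners of the members, 1 rose (16.7%, against 27.0% of all genes tested). This was Bag1, which encodes a chaperone partner of Bcl2 (0.35, adjusted p = 0.0213), and the other 5 did not pass.

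The pattern over the 4 libraries was compared with 46 other members and pathway genes by the distance between log2 CPM deviations from each gene's mean. Nearest to Bid were Birc5 (distance 0.082), Bax (0.144) and Vdac2 (0.179). Nearest to Bbc3 were Bmf (0.663), Bcl2l2 (0.970) and Bcl2l14 (1.205). With 4 libraries in 2 conditions such distances mostly describe the size of the change, and they are given without a test.

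**Figure D4:**
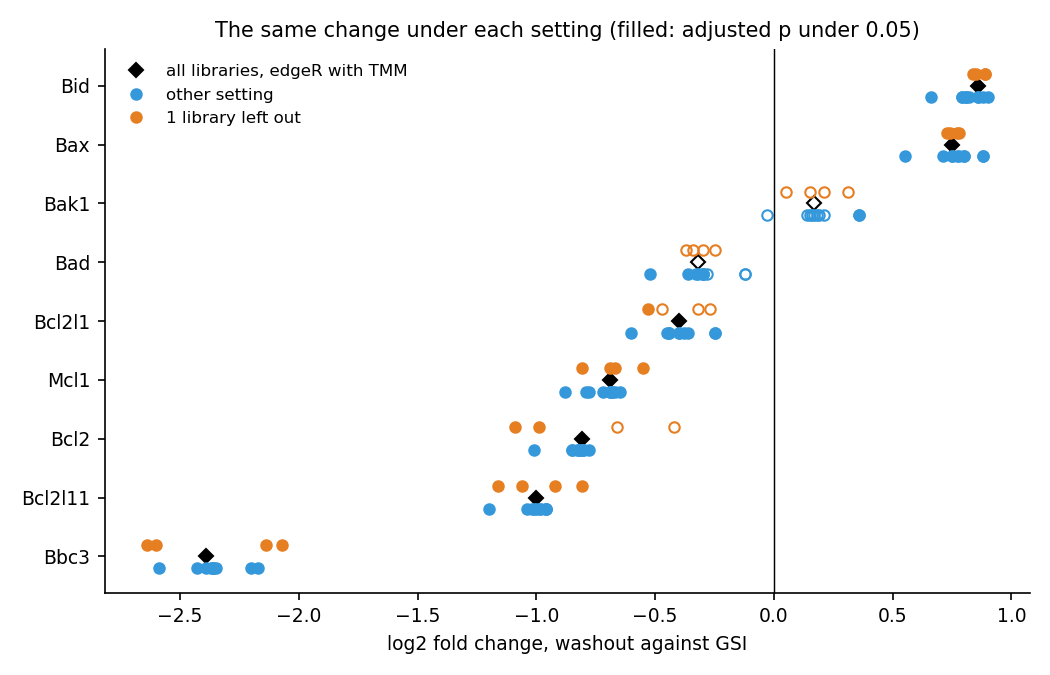
Log2 fold change of washout against GSI for each tested member with all libraries (diamonds), under each other setting except glmTreat (blue) and with 1 library left out (orange). Filled symbols passed an adjusted p of 0.05. The symbols of Bbc3, Bcl2l11, Mcl1, Bax and Bid are filled throughout, those of Bcl2 and Bcl2l1 are open in some settings, and 1 symbol of Bak1 lies left of 0 (-0.03).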

How the data were processed

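RNA-Seq of 2 GSI and 2 washout libraries of Beko cells was used. The authors deposited raw counts of reads per gene: reads were trimmed with trimGalore, aligned to mm9 with HISAT2 2.2.1 (version also in the submitters' processing notes, 1 alignment kept per read, with a maximum intron length shorter than many mouse introns) and counted with summarizeOverlaps. The strand setting and overlap mode are not given in the sources used here. Reads spanning long introns may be lost, which affects levels more than comparisons of the same gene.

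Libraries were grouped by their labels. Genes were filtered with filterByExpr, scaled with TMM factors and tested with edgeR 4.0.16 (R 4.3.3) by the quasi-likelihood test without covariates, on 12266 genes with Benjamini-Hochberg adjustment. The threshold was an adjusted p of 0.05, and the study's criteria add a log2 fold change past 1 or -1. Intervals are 95% and cover neither multiple testing nor the choice of genes. The biological coefficient of variation was 0.121. DESeq2 1.42.0, other scalings and filters, thinning to the smallest library, a GC and length correction (mgcv 1.9.3), a replicate block, glmTreat and leaving out each library served as alternatives. The scripts were tested on simulated data. Positions and exon lengths are from GENCODE vM1 on mm9, in which 20641 of 24391 symbols matched 1 gene. Promoters are from RefSeq (GRCm38.p6).

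Members and lists were chosen with earlier results of these data known. The summed level of the erythroid markers is not reported here. Named were every member, the largest rise and fall past the threshold in each pathway list, and the 3 genes nearest in pattern to the most significant risen and fallen member. Promoters are those of the member with the lowest p in each role, plus Bcl2l11 and Bbc3.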

Additional observations from a re-analysis of the deposited data

How the results depend on the processing

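Over 9 members and 15 alternatives, 116 of 135 log2 fold changes kept their direction and side of the threshold, 12 lost the call, 6 gained it and 1 turned, that of Bak1 with total-count scaling (-0.03). That scaling moved the median of all genes to -0.21 and the share of higher calls from 51.5% to 35.3%. It gave 3 members lower past both thresholds in place of 1, and 8 pathway genes higher and 13 lower in place of 13 and 8. Members lower past both thresholds were 2 with at least 10 counts in every library, 2 after thinning and 2 after thinning with the replicate block. With glmTreat, 0 members were higher and 1 was lower (2 and 5 by the main test, which asks for any change), as were 0 and 1 pathway genes, and over all 12266 genes 308 were higher and 501 lower. With 1 library left out, members lower numbered 3 to 5, members lower past both thresholds 1 to 3, pathway genes higher 8 to 14 and lower 4 to 8, and the log2 change of Mcl1 to Bcl2 ran from -0.24 (without GSI library 1) to 0.42. The lone library of a condition is then assumed to vary like the other condition. Same-numbered libraries share only a number in the labels (correlation of deviations 0.497). The replicate block gave 6 members lower, adding Bad (-0.33, adjusted p = 0.00748), and 2 higher, with 4243 genes higher and 4216 lower in all. Bad also passed after thinning with the replicate block (-0.30, adjusted p = 0.0261), and Bcl2l1 passed when the GC and length correction was combined with the replicate block (-0.25, adjusted p = 0.00257), whereas it did not without the block. GC content and length were known for 89.4% of genes tested. The cause of these shifts was not tested. With 2 libraries per condition, precision is limited for Bcl2l2 and other genes with low counts. It is also limited for Bcl2, whose GSI libraries differed from each other (22.2 and 13.7 CPM).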
